A study of Homo sapiens with 6 samples.

Results

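The 6 genes described here are SPRY4, DUSP4, DUSP5, RGS2, SHC4 and MAP2K6. They encode inhibitors, an adaptor and a kinase of MAP kinase signalling and, with RGS2, an inhibitor of G protein signalling. They were taken by symbol from a deposited table of 1305 genes, and all 6 were found in it. RNA was sequenced from NCI-H292, an established human lung cancer cell line, after 48 hours with 50 nM mitoxantrone (3 libraries) or, as control, with the solvent DMSO diluted 1 in 1000 (3 libraries). Mitoxantrone is a drug that traps type II topoisomerases on DNA and causes breaks, and the series title places the comparison in work on drug-induced senescence, a lasting arrest of division. All libraries came from 1 cell line, no genetic change is labelled in either group, and nothing in the labels says that the replicates were separate cultures, so spreads and p-values may describe technical variation only.

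The table is the authors' selection of genes that differed between these same libraries: the smallest absolute log2 fold change in the authors' deposited table was 1.0. The 6 genes were moreover picked with the contrast between mitoxantrone and DMSO known. Their differences between the groups are therefore given as a description, with standard errors and no p-value.

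In a MAP kinase cascade a signal from a growth factor receptor passes through adaptor proteins and RAS to a chain of kinases that ends in ERK, while stress signals pass through parallel chains that end in p38 and JNK. Active ERK switches on the genes of its own inhibitors, among them Sprouty proteins, which act near the receptor, and dual specificity phosphatases, which remove the activating phosphates from the kinases. In lung cancers this pathway is best known for being driven by the EGF receptor and by RAS.

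In the deposited coordinates, whose genome build is not given in the sources used here, SPRY4 lay at chr5:141689992-141706020 on the minus strand, DUSP4 at chr8:29190581-29208185 on the minus strand, and DUSP5 at chr10:112257596-112271302 on the plus strand. RGS2 lay at chr1:192778169-192781403 on the plus strand, SHC4 at chr15:49115932-49255641 on the minus strand and MAP2K6 at chr17:67410839-67539472 on the plus strand. These positions are not those of GRCh38, in which GENCODE release 29 placed only 3 of the 1267 deposited genes that it holds at the same start and end. The 6 genes are thus on 6 chromosomes and are all protein-coding.

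The name of a feedback and adaptor group covers the members unevenly. SPRY4 is a Sprouty protein, and DUSP4 and DUSP5 are phosphatases of the nucleus, of which DUSP5 is selective for ERK and DUSP4 acts on ERK and also on JNK and p38. SHC4 is an adaptor of the SHC family, which binds phosphorylated receptors and recruits GRB2, which brings in the activators of RAS. RGS2 speeds the switching off of G protein alpha subunits, chiefly those of the Gq class, and so acts on receptors of another kind. MAP2K6 is itself a kinase, the activator of p38, and neither an inhibitor nor an adaptor.

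The 250 bases before the annotated start are shown for RGS2, SPRY4 and SHC4, which were higher with mitoxantrone, and for MAP2K6, which was lower, so that their control regions can be set side by side. Sequences of DUSP4 and DUSP5 were not used here. They come from RefSeq on GRCh38.p14: chr1:192808789-192809038 on the plus strand for RGS2, chr5:142324248-142324497 on the minus strand for SPRY4, chr15:48963920-48964169 on the minus strand for SHC4 and chr17:69414447-69414696 on the plus strand for MAP2K6. For MAP2K6 the table held 2 starts, and the one nearest the gene's start in GENCODE was used. Each is written 5′ to 3′ along the gene, with matches to any of 6 searched motifs in capitals.
RGS2: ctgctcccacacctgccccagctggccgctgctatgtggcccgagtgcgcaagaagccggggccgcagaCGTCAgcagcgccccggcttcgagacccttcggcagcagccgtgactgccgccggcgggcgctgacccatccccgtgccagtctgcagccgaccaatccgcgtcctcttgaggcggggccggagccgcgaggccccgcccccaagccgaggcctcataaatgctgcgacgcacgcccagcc
SPRY4: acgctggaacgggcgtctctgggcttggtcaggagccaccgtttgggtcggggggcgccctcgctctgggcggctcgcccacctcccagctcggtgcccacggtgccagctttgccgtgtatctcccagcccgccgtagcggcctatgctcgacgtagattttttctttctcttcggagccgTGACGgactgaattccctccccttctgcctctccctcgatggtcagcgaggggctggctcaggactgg
SHC4: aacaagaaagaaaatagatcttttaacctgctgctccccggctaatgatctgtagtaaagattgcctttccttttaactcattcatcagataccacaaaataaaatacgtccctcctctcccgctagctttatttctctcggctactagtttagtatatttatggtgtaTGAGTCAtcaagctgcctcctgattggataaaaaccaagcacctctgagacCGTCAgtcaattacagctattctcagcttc
MAP2K6: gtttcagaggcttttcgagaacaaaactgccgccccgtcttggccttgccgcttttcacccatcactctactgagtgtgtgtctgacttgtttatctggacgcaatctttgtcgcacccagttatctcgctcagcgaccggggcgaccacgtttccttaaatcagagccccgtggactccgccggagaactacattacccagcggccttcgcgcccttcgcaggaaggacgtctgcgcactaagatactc

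Both strands were searched for the AP-1 site (TGANTCA), the cyclic AMP response element (TGACGTCA), its half-site (TGACG), and an ETS site (CCGGAA). The core promoter motif TATAAA was searched in the same way, as was the CArG box, which binds serum response factor. The RGS2 sequence held the half-site as CGTCA, from base 181 to base 177 before the start. The SPRY4 sequence held it as TGACG, from base 68 to base 64. The SHC4 sequence held it as CGTCA, from base 30 to base 26, and also held the AP-1 site TGAGTCA from base 81 to base 75. No motif matched in the MAP2K6 sequence. Among 35116 RefSeq sequences of the same length, 21.2% held the half-site and 6.57% the AP-1 site, against 1.65% for the full element, 14.5% for the ETS site, 10.7% for TATAAA and 1.16% for the CArG box. Every full element also contains the half-site. The sequences also differed in base composition, with 72.8% G and C for RGS2, 65.6% for SPRY4, 40% for SHC4 and 55.6% for MAP2K6, where the median of all was 58%. A match of letters is a description and not a site of binding.

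SPRY4, DUSP4, DUSP5, RGS2 and SHC4 were higher with mitoxantrone and MAP2K6 was lower. The differences ranged from 2.85-fold for DUSP4 to 14-fold for SHC4 among the higher genes, and MAP2K6 was 5.25-fold lower. Mitoxantrone and DMSO libraries were fully apart for each of the 6 genes, as for 98.6% of all deposited genes (1287 of 1305), a share that the selection of the table favours and from which nothing can be read about these genes. Of all deposited genes 56.7% passed as higher and 35.3% as lower in the fit used here, and this contrast also served to choose the 6. RNA was measured in bulk, so more transcript per cell and more cells that express a gene cannot be told apart.

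**Figure D1:**
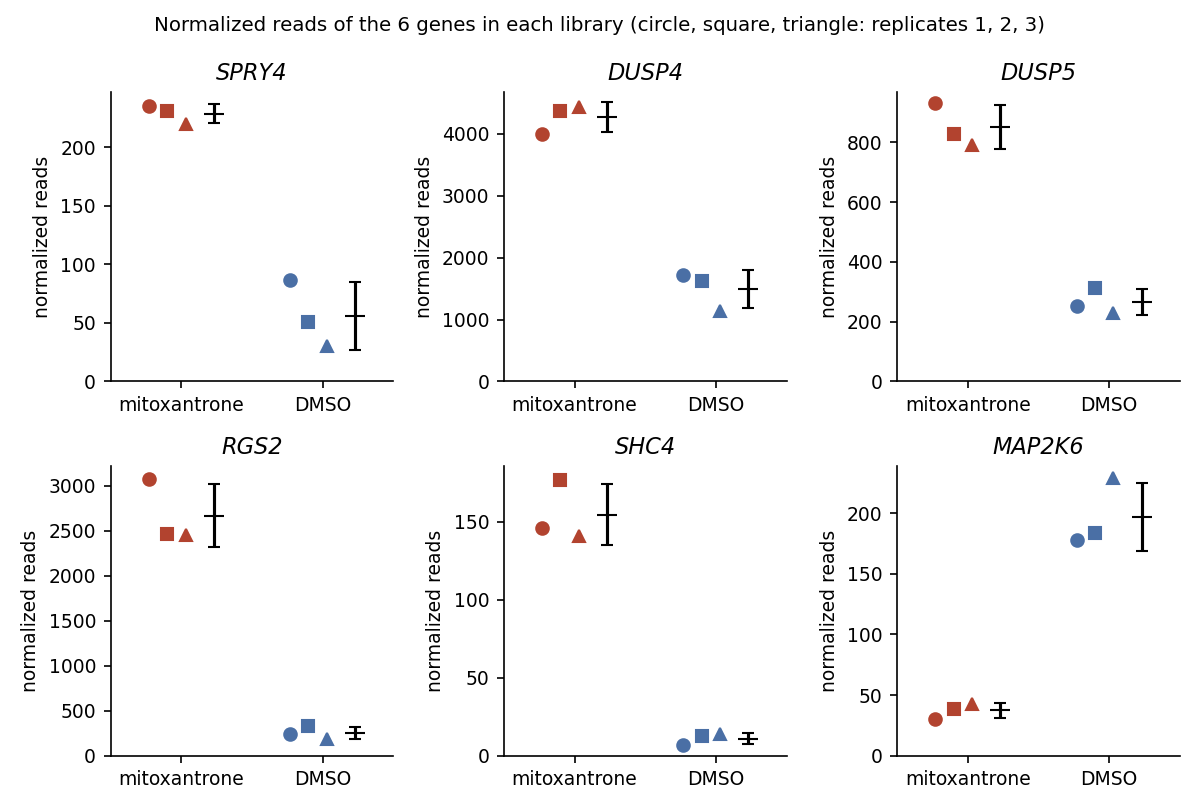
Reads of each gene divided by the size factor of the library, for 3 mitoxantrone libraries and 3 DMSO libraries, on linear axes that start at 0. Symbols mark replicates 1, 2 and 3, and the bar beside them is the mean with its SD. The groups are apart for all 6 genes, and SPRY4 has the widest relative spread among DMSO libraries, at 30 to 86.8 normalized reads.

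Among the inhibitors, SPRY4 had 235, 231 and 220 normalized reads in mitoxantrone libraries 1, 2 and 3, against 86.8, 50.5 and 30 in DMSO libraries 1, 2 and 3. Normalized reads are reads divided by the size factors that the authors used. The mitoxantrone libraries were close together, with a coefficient of variation of 3.44%, whereas the DMSO libraries varied by 51.6%, where counting error alone gives 12.7%. Even the lowest mitoxantrone library was 2.54 times the highest DMSO library. The log2 fold change was 2.03 with a standard error of 0.26, and 2.52 without DMSO replicate 1, the highest of its group, or 1.72 without DMSO replicate 3, the lowest.

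DUSP4 was the most abundant of the 6 in reads, with 3993, 4372 and 4436 normalized reads with mitoxantrone, against 1719, 1629 and 1143 with DMSO. Its log2 fold change of 1.51 (standard error 0.16) was the smallest of the 6 in size. DUSP5 had 933, 826 and 791 normalized reads with mitoxantrone, against 253, 313 and 228 with DMSO. Its log2 fold change was 1.69 with a standard error of 0.15, so the intervals of 1 standard error around the 2 phosphatases overlapped. Both were tight with mitoxantrone (coefficients of variation of 5.62% for DUSP4 and 8.69% for DUSP5) and looser with DMSO (20.7% and 16.6%). Over all deposited genes the difference between 2 libraries, as chi-square per gene, was 10.57 to 24.57 within DMSO and 2.63 to 14.31 within mitoxantrone. A wider spread with DMSO was thus not shown to be particular to these genes.

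RGS2 averaged 2668 ± 352 normalized reads (SD, n = 3) with mitoxantrone and 252 ± 69.5 (SD, n = 3) with DMSO. The single mitoxantrone libraries had 3075, 2471 and 2460 and the DMSO libraries 246, 325 and 186. The lowest mitoxantrone library was 7.58 times the highest DMSO library, and the log2 fold change was 3.41 with a standard error of 0.19. By fold it took rank 71 of the 793 higher genes, and by mean normalized reads rank 117 of all 1305, so it combined a large difference with a high read number.

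SHC4 had the largest fold of the 6 and the fewest reads at baseline. It had 146, 177 and 141 normalized reads with mitoxantrone, against 6.87, 12.4 and 13.7 with DMSO. The DMSO values rest on 8, 12 and 16 reads, and the 95% exact Poisson interval of the smallest, which covers counting error only, was 3.45 to 15.8. Their coefficient of variation of 33% was close to the 28.9% that counting error alone gives. The log2 fold change was 3.81 with a standard error of 0.26, and it lay between 3.55 and 4.02 when any 1 library was left out. In GENCODE release 29 the exons of SHC4 share 169 bases with EID1, a gene on the opposite strand, whose reads cannot be separated there without strand. EID1 was not analysed here.

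MAP2K6 had 30.5, 38.6 and 42.9 normalized reads with mitoxantrone, against 178, 183 and 229 with DMSO. The lowest DMSO library was 4.14 times the highest mitoxantrone library. The mitoxantrone values rest on 27, 37 and 40 reads, with a coefficient of variation of 16.8% where counting error alone gives 17%. The log2 fold change was -2.39 with a standard error of 0.20, rank 62 of the 512 lower genes by size.

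No library was the highest, or the lowest, of its group for all 6 genes. DMSO replicate 3 was the lowest of its group for SPRY4, DUSP4, DUSP5 and RGS2 and the highest for SHC4 and MAP2K6. This was not particular to the 6 genes. Among the other pathway genes described below, it was the lowest for most of the higher ones, such as AREG, TGFA and PHLDA1. It was the highest for the lower ones, KSR1 and DUSP9. Of the higher ones EPGN, SPRY3, MAPK10 and MAPK11 went otherwise. Mitoxantrone replicate 1 was the highest of its group for SPRY4, DUSP5 and RGS2 and the lowest for DUSP4 and MAP2K6.

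The log2 fold changes in the authors' deposited table were smaller in size for each gene, at 1.86 for SPRY4, 1.47 for DUSP4, 1.64 for DUSP5, 3.28 for RGS2, 3.35 for SHC4 and -2.22 for MAP2K6. The authors' deposited table differed from the fit described here most for SHC4, the gene with the fewest DMSO reads.

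**Figure D2:**
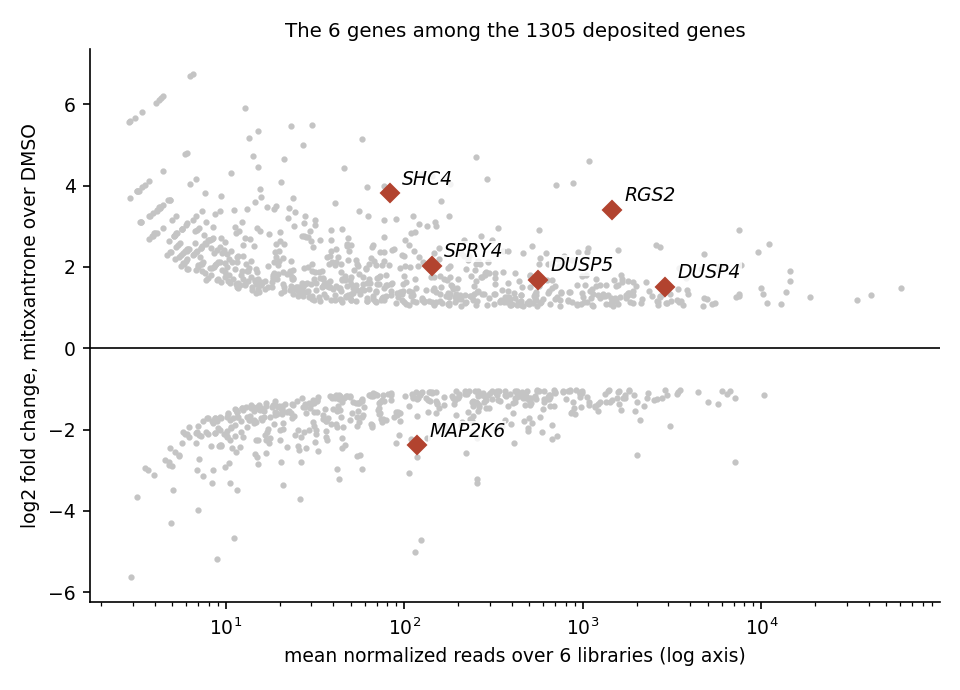
Log2 fold change of mitoxantrone over DMSO against mean normalized reads over 6 libraries (log axis) for the 1305 deposited genes in grey, with the 6 genes as diamonds. The empty band around 0 is the authors' selection of genes; RGS2 lies at 3.41 among genes with many reads, and MAP2K6 is the 1 diamond below 0.

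Levels per gene length, as the deposited FPKM, put the genes on 1 scale. With mitoxantrone the order was RGS2 at 78.3 ± 8.67 FPKM, DUSP4 at 36.1 ± 2.81, DUSP5 at 19.9 ± 1.28, SPRY4 at 2.37 ± 0.032, SHC4 at 1.56 ± 0.20 and MAP2K6 at 0.38 ± 0.071 (SD, n = 3 each). With DMSO it was DUSP4 at 13.3 ± 2.72 FPKM, RGS2 at 7.73 ± 1.86, DUSP5 at 6.49 ± 0.83, MAP2K6 at 2.07 ± 0.33, SPRY4 at 0.61 ± 0.33 and SHC4 at 0.12 ± 0.042 (SD, n = 3 each). Neighbours in the order had separate ranges in both groups, except RGS2 and DUSP5 with DMSO, which overlapped.

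The order within a library therefore differed between treatments. RGS2 was 2.68, 1.97 and 1.93 times DUSP4 in the mitoxantrone libraries, against 0.50, 0.69 and 0.57 times in the DMSO libraries. MAP2K6 was 0.13, 0.16 and 0.19 times SPRY4 with mitoxantrone, against 1.98, 3.54 and 7.42 times with DMSO. The ratio of DUSP4 to DUSP5 was closer between treatments, at 1.54, 1.91 and 2.02 with mitoxantrone and 2.45, 1.88 and 1.81 with DMSO, and here the groups overlapped. FPKM uses the deposited gene lengths, and for MAP2K6 that length was 6125 bases where GENCODE release 29 gives 16655 exonic bases. For SPRY4 the lengths were 5930 and 6565 bases. For the same reads, a longer length lowers FPKM in all libraries alike, but a longer gene model could also take in further reads. The place of MAP2K6 in the order, and its ratio to SPRY4, thus depend on the gene model used. Other lengths were not tried. For DUSP4, DUSP5 and SHC4 both lengths were equal.

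**Figure D3:**
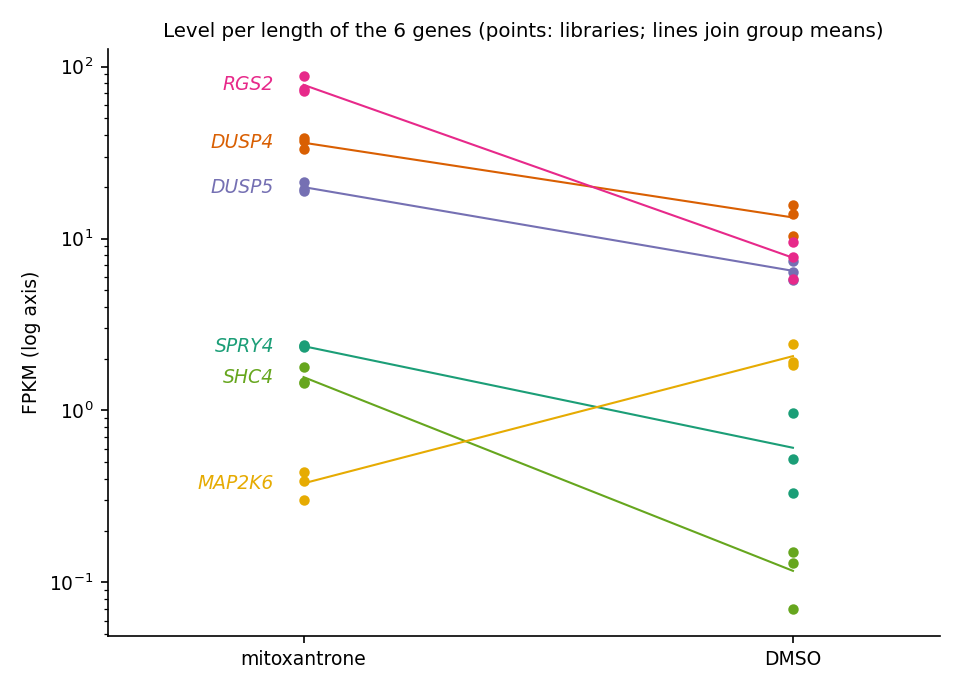
FPKM of each library on a log axis, mitoxantrone left and DMSO right, with lines between the group means of each gene. The line of RGS2 crosses that of DUSP4, and the line of MAP2K6 crosses those of SPRY4 and SHC4.

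The table held 1305 of the 18313 genes that the authors tested, the share to set beside the counts of listed genes below. A wider set of 110 other genes of the pathway, in 9 groups by role, places the 6 genes. Of these, 17 were in the deposited table; 15 passed as higher and 2 as lower (edgeR quasi-likelihood test, Benjamini-Hochberg adjusted p under 0.05), and the rest were not analysed here. Among all deposited genes 56.7% passed as higher and 35.3% as lower. Every deposited gene had already been selected on these same libraries, so a pass, here or below, is no independent evidence of a difference. The median log2 fold change of the 17 was 1.31, against 1.26 for all deposited genes. With TMM or DESeq2 size factors computed over the deposited genes alone, which shift the median by -0.69 and -0.99, 8 and 4 of them passed as higher and the same number, 2, as lower, and all 17 kept their sign. Over the whole table the calls were 740 higher and 461 lower with the authors' factors, 366 and 512 with TMM factors, and 219 and 512 with DESeq2 factors. These factors treat genes selected as changed as if most had not changed. Every listed gene had a deposited log2 fold change of at least 1.0 in size, and neither shift was larger. The kept signs and the 2 passes as lower were thus all but fixed in advance.

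Upstream of the cascade, 4 of 8 ligands of the EGF receptor were in the table and passed as higher. AREG (amphiregulin) averaged 1334 ± 74.6 normalized reads with mitoxantrone and 82.5 ± 30.2 with DMSO (SD, n = 3 each), and TGFA 2502 ± 63.2 and 807 ± 127 (SD, n = 3 each). AREG has a near-identical copy with which its reads may be divided. EREG and EPGN were scarcer, with log2 fold changes of 3.70 (standard error 0.46) and 2.24 (0.35), and EPGN did not pass with DESeq2 factors over the deposited genes (edgeR adjusted p 0.069). Of 11 receptor tyrosine kinases, EPHA2, an ephrin receptor, was in the table and 2.45-fold higher, but did not pass with the DESeq2 factors (edgeR adjusted p 0.97). SHC4 was the 1 gene of 11 adaptors and exchange factors in the table. Among 14 genes of RAS, RAF, MEK and ERK, only KSR1 was, the scaffold that holds RAF, MEK and ERK together, which was 2.17-fold lower at 142 ± 17.8 normalized reads with mitoxantrone and 307 ± 85.7 with DMSO (SD, n = 3 each).

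Among the inhibitors, the table held SPRY3 beside SPRY4. SPRY3 had a log2 fold change of 1.26 (standard error 0.31) and an edgeR adjusted p of 0.019, which became 0.061 without mitoxantrone replicate 3. With TMM and DESeq2 factors over the deposited genes its log2 fold change was 0.57 and 0.27, and the edgeR adjusted p was 1 in both. Of 10 MAP kinase phosphatases 4 were in the table, and they did not share a direction. DUSP1, a nuclear phosphatase that acts on p38, JNK and ERK, averaged 4420 ± 204 normalized reads with mitoxantrone and 1754 ± 290.4 with DMSO (SD, n = 3 each), and did not pass with the DESeq2 factors (edgeR adjusted p 0.75). DUSP9, a cytoplasmic phosphatase with a preference for ERK, averaged 47.7 ± 6.96 with mitoxantrone and 221 ± 30.1 with DMSO (SD, n = 3 each). Its fall of 4.63-fold was near that of MAP2K6 in size.

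Of 15 kinases of the p38 and JNK cascades, MAPK10 (JNK3) and MAPK11 (p38 beta) passed as higher beside the lower MAP2K6. Their log2 fold changes were 1.25 (standard error 0.23) and 1.08 (0.19), and both had low levels of 0.66 ± 0.11 and 2.54 ± 0.32 FPKM with mitoxantrone (SD, n = 3 each). Neither passed with TMM factors (edgeR adjusted p 0.44 for MAPK10 and 0.87 for MAPK11) or with DESeq2 factors (1 for both, at log2 fold changes of 0.26 and 0.083), whereas MAP2K6 had larger falls with both. Of 20 RGS genes, RGS16 stood beside RGS2, 2.47-fold higher, with an edgeR adjusted p of 0.081 with TMM and 1 with DESeq2 factors. Of 20 transcription factors and early genes that respond to ERK, 5 were in the table and all passed as higher with the authors' size factors. PHLDA1 was 3.78-fold higher, FOS 2.78-fold, IER3 2.52-fold, ETV5 2.22-fold and CCND1, which encodes cyclin D1, 2.17-fold. With TMM factors IER3, ETV5 and CCND1 did not pass (edgeR adjusted p 0.079, 0.37 and 0.36), and with DESeq2 factors FOS did not pass either (0.8), which left PHLDA1.

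**Figure D4:**
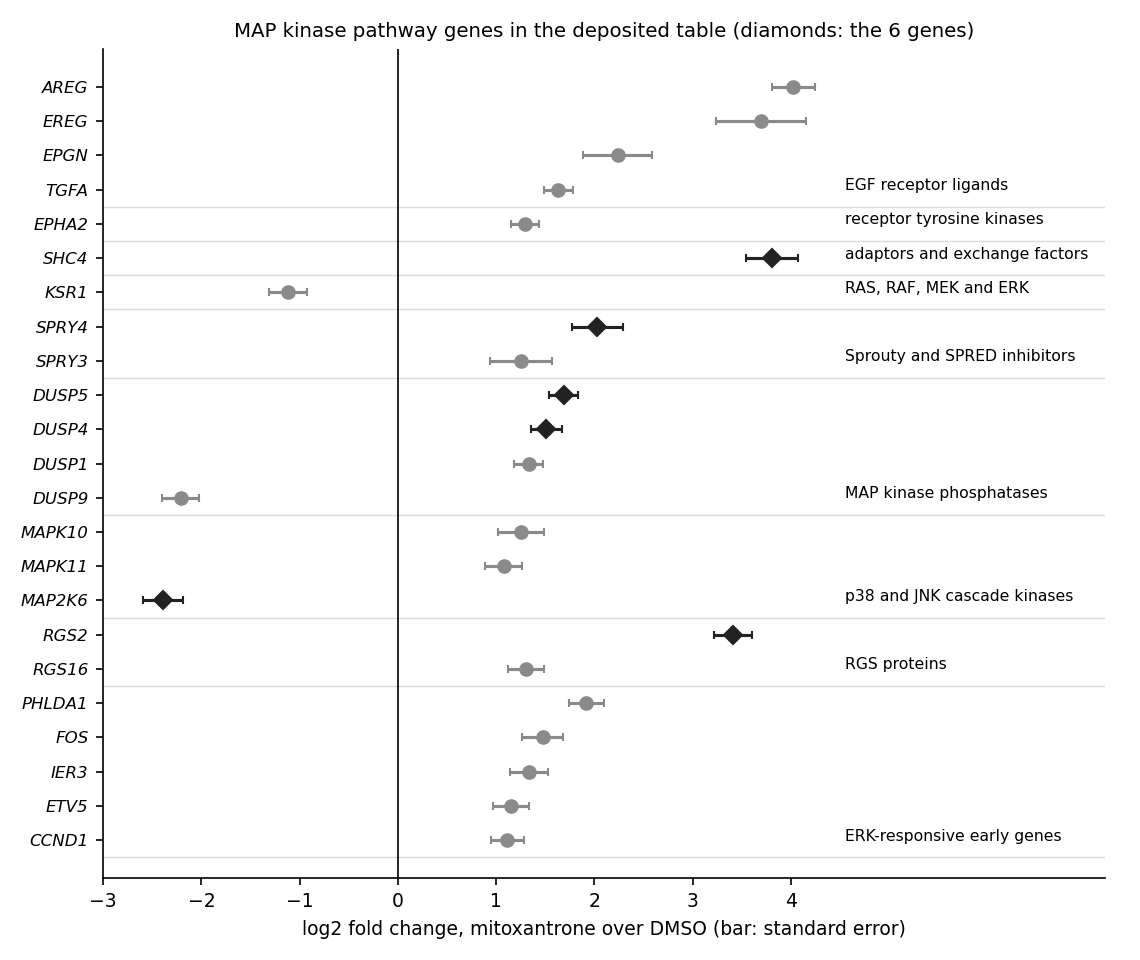
Log2 fold change of mitoxantrone over DMSO with its standard error for the 23 pathway genes in the table, grouped by role, with the 6 genes as diamonds. DUSP9, KSR1 and MAP2K6 are left of 0 and the other 20 right of it.

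The deposited genes whose pattern over the 6 libraries was most like each member were found by distance between centred log2(normalized reads + 1) values, among protein-coding genes with at least 0.25 times the member's mean reads. All genes share the same 6 libraries, which fall into 2 treatments, so such distances mainly measure the size of the group difference. DUSP5 had the closest pair, LGALS9B at a distance of 0.097 and MFAP5 at 0.11. LGALS9B has near-identical copies, so its reads are uncertain. DUSP4 was closest to TGFA (0.19) and LIF (0.21), and SPRY4 to MARCHF4 (0.54, deposited under a name turned into a date) and PHLDA1 (0.63). TGFA and PHLDA1 thus stood in both the pathway set and the nearest pairs. RGS2 was less closely matched, with LCN2 and SERPINB2 both at 0.84, as was SHC4, with PTPN22 at 0.83 and TENM4 at 0.97. MAP2K6 was nearest to NRARP (0.48) and SCD (0.53), both lower with mitoxantrone.

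Within 500 kb of the 6 genes the table held 4 other genes, and each had its fold in the same direction as its neighbour. Of all deposited genes 793 were higher and 512 lower. Neighbours that did not change are not in such a table, so nothing about shared control can be read from this. AC005592.2 (SPRY4-AS1), an antisense gene that overlaps the start of SPRY4, had 16, 21 and 10 reads with mitoxantrone, against 9, 4 and 4 with DMSO. Its edgeR adjusted p was 0.047, and from 0.0034 to 1 over the alternatives, 4 of 14 settings passing. PCDH12, a protocadherin gene 341 kb from SPRY4, was 3.65-fold higher and did not pass with DESeq2 size factors over the deposited genes, where its edgeR adjusted p was 0.3 (5.6e-04 with the authors' factors).

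RP11-525A16.4 (DUSP5-DT), a non-coding gene that starts 1.6 kb before DUSP5 on the other strand, had 6, 9 and 18 reads with mitoxantrone, against 1, 5 and 3 with DMSO. It did not pass, with an edgeR adjusted p of 0.084 (0.006 to 1 over the alternatives). RP1-193H18.2, which lies 8 kb beyond the end of MAP2K6 on the same strand, had 5, 8 and 5 reads with mitoxantrone, against 44, 54 and 53 with DMSO. It passed as lower in all 14 settings, with a log2 fold change of -2.81 and a standard error of 0.36. These settings reuse the libraries on which the gene was listed, and the TMM and DESeq2 factors shift folds downward. The table lists RP1-193H18.2 as a gene of its own, apart from MAP2K6, with an ID that GENCODE release 29 does not hold. For MAP2K6 that release gives 16655 exonic bases, against a deposited length of 6125. Whether RP1-193H18.2 is a part of MAP2K6 was not tested, so it may not be a separate gene. In GENCODE release 29 no exon of SPRY4 overlaps one of SPRY4-AS1, but the annotation that the authors used is not given, so whether reads were shared was not tested.

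**Figure D5:**
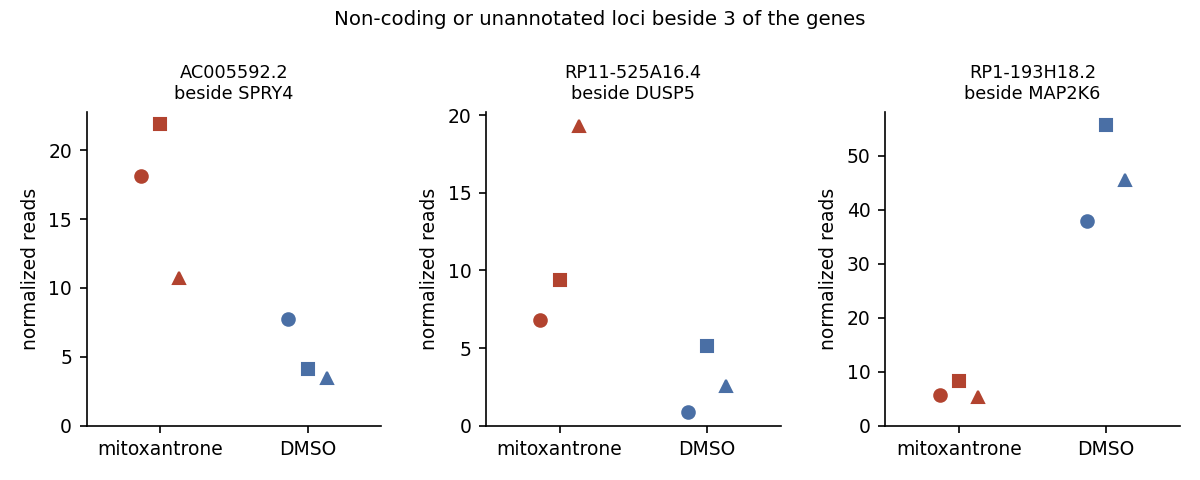
Normalized reads of the 3 loci next to SPRY4, DUSP5 and MAP2K6 in each library, mitoxantrone left and DMSO right, on linear axes from 0. RP1-193H18.2 is apart between the groups, at 5.37 to 8.34 with mitoxantrone and 37.8 to 55.6 with DMSO.

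The deposited FPKM implied library totals of 14762544 to 15663331 with mitoxantrone and 15789353 to 17817782 with DMSO. Which reads these totals count is not given in the sources used here. Reads of the deposited genes were 6.08% to 6.2% of these totals with mitoxantrone and 3.97% to 4.04% with DMSO. Of 8 epithelial markers 3 were in the table, and KRT8 and KRT18, keratins of simple epithelia, reached 1093 ± 90 and 909 ± 90.2 FPKM with mitoxantrone and 409 ± 51.2 and 416 ± 66.8 FPKM with DMSO (SD, n = 3 each). The third, ELF3, an epithelial transcription factor, was 2.42-fold lower, at 12.5 ± 0.74 FPKM with mitoxantrone and 31.9 ± 8.55 with DMSO (SD, n = 3 each). Summed normalized reads of the leukocyte markers in the table, CD14 and ITGAM (2 of 5), were 38.5 to 59.4 with mitoxantrone and 48.1 to 74.5 with DMSO, a sum of opposite moves. ITGAM averaged 21.4 ± 10.1 with mitoxantrone and 3.49 ± 2.17 with DMSO, and CD14 25.6 ± 1.78 and 57.3 ± 13.7 (SD, n = 3 each), and they passed as higher and as lower with edgeR adjusted p-values of 0.0056 and 0.011. Those of the fibroblast and endothelial markers COL1A1 and CDH5 (2 of 6) were 327 to 389 with mitoxantrone and 679 to 908 with DMSO. The other markers were not analysed here, and the part of other cell types in the results was not tested.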

How the data were processed

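Paired reads (150 bases) were obtained from 6 RNA libraries. The labels' protocols name kits for poly(A) selection and for removal of ribosomal RNA and not which was used; strand is not given. Tools in the submitters' processing notes, given without roles, are HISAT2 2.0.1, HTSeq 0.6.1, DESeq2, Cufflinks 2.2.1 and cutadapt 1.9.1. Per the file headers, the table deposited by the authors gives raw counts and FPKM per gene and library. It also holds the authors' mean normalized count over libraries (a signal value), log2 fold change, standard error, Wald score, p-value and adjusted p-value.

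Size factors were solved from the deposited counts and mean normalized counts (largest relative error 5.0e-10), and library totals from FPKM (all values within 0.006). The number of tested genes was found by multiplying candidate numbers by the authors' p-values over their adjusted p-values. The products came nearest to whole-number ranks at 18313. Counts of all 1305 genes were fitted with edgeR 4.0.16 (limma 3.58.1, R 4.3.3), treatment alone, no filter, and Benjamini-Hochberg adjustment over 18313 tests at 0.05, with ranks among the deposited genes only, which can only enlarge adjusted p-values. A table of selected genes can make dispersions too low and folds too large. The standard error is the log2 fold change over the root of F. Alternatives were TMM and DESeq2 factors, library totals, DESeq2 1.42.0, a minimum mean of 10, FPKM with pseudocounts 0.1 and 1, the replicate block, adjustment over the table, and each library left out. Libraries of a group were not duplicates (chi-square per gene 2.63 to 24.57). Symbols were matched by ID for 1259 genes. Sequences were matched by symbol for 4 genes. The members, lists and tests were chosen with earlier results of these data known. Named genes are the 6 members, pathway genes in the table, the 2 nearest patterns per member and genes within 500 kb.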

Additional observations from a re-analysis of the deposited data

How the results depend on the processing

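All 6 genes kept their direction under every alternative tried. Their groups were fully apart, and the largest shift of the median, -0.99, was smaller in size than any of their log2 fold changes. A reversal was thus hardly possible, and the kept direction is no independent evidence of a difference. With TMM factors over the deposited genes the log2 fold changes were 1.34 for SPRY4, 0.82 for DUSP4, 1.00 for DUSP5, 2.72 for RGS2, 3.12 for SHC4 and -3.08 for MAP2K6. With DESeq2 size factors over the same genes they were 1.04, 0.52, 0.70, 2.42, 2.82 and -3.38 in that order of genes. Both shifts follow from centring genes selected as changed; those passing as higher were then 366 and 219 of the table and 8 and 4 of the pathway genes. On the log2(FPKM + 0.1) scale SHC4 was 2.95, and on the log2(FPKM + 1) scale SPRY4 was 1.09, DUSP5 1.49, SHC4 1.20 and MAP2K6 -1.15; a pseudocount shrinks differences of low values. Leaving out any 1 library gave 1.72 to 2.52 for SPRY4, 1.35 to 1.62 for DUSP4, 1.59 to 1.82 for DUSP5, 3.23 to 3.63 for RGS2, 3.55 to 4.02 for SHC4 and -2.50 to -2.27 for MAP2K6, with 622 to 715 genes passing as higher and 395 to 463 as lower (14 to 15 and 2 of the pathway genes). The other settings left member values within 1 SD of replicates and counts within 1.5 times.

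Same-numbered libraries did not deviate together over the deposited genes (correlations of deviations -0.13, -0.075 and 0.072). With 3 libraries per group and genes selected for their difference, these values cannot exclude that the numbers pair the libraries. With the replicate block 736 passed as higher and 463 as lower, with SPRY4 at 2.12, and pathway counts were 15 and 2. Reads limit SHC4 with DMSO and MAP2K6 with mitoxantrone most.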
